A study of Mus musculus with 12 samples.

Results

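The genes described here are 10 members of a pair of mouse gene families, Ifitm1, Ifitm2, Ifitm3 and Ifitm6 (interferon-induced transmembrane genes) and Slfn1, Slfn2, Slfn3, Slfn4, Slfn5 and Slfn9 (Schlafen genes), out of 22180 genes that the array measured with a probe set of 1 symbol. They were selected on their measured array values by genotype label and by sort, with earlier results known, so differences along those axes chose them and are given as a description. A probe set of 1 symbol represented 9 of the 10, and 8 of these passed the filter on low values (3 or more arrays over a floor of log2 4.61, set at percentile 25 of all deposited values), as did 19152 genes in all. The only probe set found for Slfn9 was annotated to Slfn8 as well, so Slfn9 has no value of its own. Slfn5 lay under the floor on every array.

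Expression was measured on 12 arrays of sorted cells from 6 leukaemias of mice, all of them driven by the oncogene MLL-AF9, a gene fusion found in acute myeloid leukaemia. Leukaemias 81, 83 and 85 were labelled Dnmt3b-knockin (KI below), with overexpression of the de novo DNA methyltransferase Dnmt3b, and leukaemias 73, 75 and 79 were labelled WT. From each there was 1 array per c-kit fraction, which made 4 groups of 3: KI c-kit-positive, WT c-kit-positive, KI c-kit-negative and WT c-kit-negative. The labels give no age, sex, strain or promoter of the knock-in, do not say whether each number is a separate mouse, and name bone marrow in some fields and leukaemic spleen in another. P-values therefore measure only the spread between these samples.

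Ifitm genes encode small membrane proteins that hinder the fusion of enveloped viruses with cell and endosomal membranes, and interferons induce several of them through the JAK-STAT pathway. Schlafen genes form a rapidly evolving family in rodents, linked to interferon responses, to restraint of proliferation and quiescence in lymphocytes and to myeloid cell differentiation. In blood, c-kit, the receptor of stem cell factor, marks immature cells, and genes of secondary granules and later neutrophil products appear as granulocytes mature.

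The 4 Ifitm members lie in a cluster on chromosome 7 and the 6 Slfn members in a cluster on chromosome 11 of the mouse, with other genes such as Slfn8 between some of them, so neither family is a set of unlinked loci. RefSeq promoter windows of 300 bases (250 before to 50 after the annotated start, build GRCm38.p6) were found for all 10. CpG dinucleotides, the substrate of Dnmt3b, numbered 2 to 7 in these windows, against a median of 7 and quartiles of 3 and 20 over 32851 promoter windows. The 250 bases upstream of the 4 members whose levels differed most between the groups are shown with every CpG in capitals, Ifitm3 at chr7:141010745-141010994 (minus strand), Ifitm6 at chr7:141016893-141017142 (minus strand), Slfn2 at chr11:83064862-83065111 (plus strand) and Slfn4 at chr11:83174936-83175185 (plus strand).
Ifitm3: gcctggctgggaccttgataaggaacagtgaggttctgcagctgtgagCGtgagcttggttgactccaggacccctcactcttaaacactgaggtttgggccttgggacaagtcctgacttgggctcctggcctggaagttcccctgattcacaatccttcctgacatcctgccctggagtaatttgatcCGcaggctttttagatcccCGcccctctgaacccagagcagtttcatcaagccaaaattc
Ifitm6: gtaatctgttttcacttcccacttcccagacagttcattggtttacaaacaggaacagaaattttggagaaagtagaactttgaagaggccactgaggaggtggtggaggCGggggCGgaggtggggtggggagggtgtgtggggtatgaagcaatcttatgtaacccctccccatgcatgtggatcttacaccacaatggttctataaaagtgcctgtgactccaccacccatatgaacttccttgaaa
Slfn2: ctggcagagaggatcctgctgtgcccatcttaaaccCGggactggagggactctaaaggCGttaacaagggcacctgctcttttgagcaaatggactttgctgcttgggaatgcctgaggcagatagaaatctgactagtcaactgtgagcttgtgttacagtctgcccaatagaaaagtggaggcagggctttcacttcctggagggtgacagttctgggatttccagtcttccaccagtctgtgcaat
Slfn4: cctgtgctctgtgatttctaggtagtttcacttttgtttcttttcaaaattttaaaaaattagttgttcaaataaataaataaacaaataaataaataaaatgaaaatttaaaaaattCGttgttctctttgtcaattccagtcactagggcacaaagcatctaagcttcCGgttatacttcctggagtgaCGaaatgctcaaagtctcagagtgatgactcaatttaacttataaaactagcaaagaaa
Ifitm6 and Slfn2 held 2 CpG each in the whole window, fewer than the 8 other members. No methylation was measured on these arrays, so the sequences are context only.

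The interferon-stimulated response element (GAAANNGAAA, read on both strands) is bound by interferon regulatory factors. A match lay in the windows of 4 of the 10 members, Ifitm2, Ifitm3, Slfn5 and Slfn9, and in 3.44% of all 32851 windows. Stretches of 30 bases with the match in capitals show how the copies of Ifitm3 (chr7:141010714-141010743, minus strand), Ifitm2 (chr7:140955988-140956017, minus strand), Slfn5 (chr11:82951937-82951966, plus strand) and Slfn9 (chr11:82991856-82991885, minus strand) differ.
Ifitm3: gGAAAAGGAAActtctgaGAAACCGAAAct
Ifitm2: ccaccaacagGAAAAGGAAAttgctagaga
Slfn5: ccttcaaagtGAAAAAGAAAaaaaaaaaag
Slfn9: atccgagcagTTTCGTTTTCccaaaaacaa
Ifitm3 held 2 copies, starting at bases 3 and 20 of its annotated transcript, the first with the same 10 letters as the copy of Ifitm2. The copy of Ifitm2 began 46 bases before the start, and that of Slfn5 lay in a run of A. The GAS motif (TTCNNNGAA, in 8.3% of windows) had a match in Ifitm3 and Ifitm6. The C/EBP motif (TTGCNNAA, in 10.8% of windows) had a match in Slfn2 and Slfn3, and the PU.1 motif (GAGGAAGT, in 3.2%) had none in any of the 10 windows. Only exact matches to the given letters were counted, so related sites with another base were not found by this search.

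Slfn1, Slfn2, Slfn3 and Slfn4 shared a stretch of 9 bases, the longest common to all 4, which also held in 0.843% of all windows and was picked after the sequences were seen. It is set in capitals for Slfn1 (chr11:83116736-83116765), Slfn2 (chr11:83065047-83065076), Slfn3 (chr11:83191278-83191307) and Slfn4 (chr11:83175103-83175132), all on the plus strand, because these 4 neighbours did not share a pattern on the arrays.
Slfn1: gatgtctcacACTTCCTGGagtgacatcaa
Slfn2: cagggctttcACTTCCTGGagggtgacagt
Slfn3: ggatgacagaACTTCCTGGgggagggactc
Slfn4: ttccggttatACTTCCTGGagtgacgaaat
The stretch began 42 to 74 bases before the annotated start. Members with related neighbours (Ifitm2 with Ifitm3, Slfn3 with Slfn4, Slfn8 with Slfn9) may share probe signal. Their transcripts were not compared, and the share was not measured.

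Dnmt3b itself averaged 6.39 ± 0.09 in KI and 6.36 ± 0.12 in WT leukaemias (log2, SD over 3 leukaemia means each), a difference of 0.03 (limma, adjusted p = 0.964), so the knock-in label is not reflected at this probe set. Kit was 2.65-fold higher in the c-kit-positive than in the c-kit-negative arrays (log2 difference 1.40, limma, adjusted p = 7.78e-06). Array medians lay between 5.56 and 5.71. Xist averaged 6.29 in KI leukaemia 81, against 10.4 to 11.3 in the other 5 leukaemias.

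Ifitm3, which acts against viruses in endosomes (probe set 17497718), showed the widest genotype difference over both fractions of the 8 measured members that passed the filter. In c-kit-positive cells it read 7.30, 7.48 and 7.36 in KI leukaemias 81, 83 and 85, against 6.22, 6.14 and 6.44 in WT leukaemias 73, 75 and 79. In c-kit-negative cells it read 9.41, 8.54 and 8.91 in KI, against 7.81, 7.50 and 6.81 in WT. KI and WT did not overlap in either fraction, and the c-kit-positive array was the lower of the pair in all 6 leukaemias. Averaged over both fractions, Ifitm3 was 2.54-fold higher in KI (log2 difference 1.35, SE 0.13, 95% confidence interval 1.05 to 1.64), the 6th largest positive difference among 19152 genes. The c-kit-positive minus c-kit-negative difference was widest in KI leukaemia 81, at -2.11, and narrowest in WT leukaemia 79, at -0.37. In a bulk sample, a lower share of cells that express a gene and less of its RNA per cell cannot be told apart.

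Ifitm6, a mouse member of less defined function (probe set 17497724), had the widest sort difference over both genotypes. In c-kit-positive cells it read 7.88, 9.61 and 8.75 in KI, against 8.12, 6.91 and 6.81 in WT. In c-kit-negative cells it read 9.997, 10.51 and 10.38 in KI, against 9.67, 9.20 and 9.02 in WT. WT leukaemia 73 overlapped with KI leukaemia 81 among the c-kit-positive arrays, while the c-kit-negative groups stood apart. Ifitm6 was 3.44-fold lower in c-kit-positive than in c-kit-negative cells over both genotypes (log2 difference -1.78, SE 0.28) and 2.35-fold higher in KI than in WT (log2 difference 1.23, SE 0.32, 95% confidence interval 0.51 to 1.96). The leukaemia means of KI 81 and WT 73 were 8.94 and 8.89, which left the genotypes separate by a narrow gap.

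Ifitm1 and Ifitm2, the other antiviral members of the cluster, differed by less. Ifitm1 (probe set 17484701) read 5.61, 5.78 and 5.31 in KI and 5.55, 5.40 and 5.41 in WT c-kit-positive cells, and 5.93, 6.20 and 6.19 in KI and 5.67, 5.73 and 5.53 in WT c-kit-negative cells. Ifitm2 (probe set 17497713) read 5.61, 5.54 and 5.65 in KI and 5.80, 5.36 and 5.07 in WT c-kit-positive cells, and 6.03, 6.13 and 6.15 in KI and 5.56, 5.94 and 5.58 in WT c-kit-negative cells. Both genes overlapped between genotypes in c-kit-positive cells and stood apart in c-kit-negative cells. The genotype difference over both fractions was 0.29 (SE 0.10) for Ifitm1 and 0.30 (SE 0.11) for Ifitm2. Ifitm2 was lower in the c-kit-positive array of 5 leukaemias, and WT leukaemia 73 went the other way, with a difference of 0.24.

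Slfn2, which keeps T cells and monocytes quiescent in mice (probe set 17254166), had the most even pattern. In c-kit-positive cells it read 7.46, 7.71 and 7.55 in KI, against 6.78, 6.48 and 6.77 in WT. In c-kit-negative cells it read 8.57, 8.68 and 8.27 in KI, against 7.75, 7.62 and 7.76 in WT. No KI array overlapped with a WT array of its fraction, and the c-kit-positive array was lower by 0.72 to 1.14 in every leukaemia. The genotype difference was 0.85 (SE 0.11, 95% confidence interval 0.60 to 1.09), or 1.80-fold, and the sort difference was -0.98 (SE 0.09), or 1.97-fold lower in c-kit-positive cells.

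Slfn4, a gene of mouse macrophages and immature myeloid cells that falls as they differentiate (probe set 17254176), read 7.34, 7.40 and 7.55 in KI and 6.86, 7.13 and 7.03 in WT c-kit-positive cells, with no overlap. In c-kit-negative cells it read 8.32, 8.36 and 7.92 in KI, against 7.16, 7.53 and 8.05 in WT, where KI leukaemia 85 lay under WT leukaemia 79. Its genotype difference was 0.52 (SE 0.13) and its sort difference was -0.67 (SE 0.13).

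Slfn1, which slows the growth of mouse thymocytes when overexpressed (probe set 17254171), was separated by the sort alone. It read 5.46, 5.35 and 5.57 in KI and 5.40, 5.38 and 5.36 in WT c-kit-positive cells, and 6.22, 6.47 and 6.14 in KI and 5.74, 5.95 and 6.53 in WT c-kit-negative cells. The c-kit-positive array was lower in all 6 leukaemias (log2 difference -0.75, SE 0.12), whereas WT leukaemia 79, with a mean of 5.95, lay above all 3 KI means and the genotype difference was 0.14 (SE 0.11).

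Slfn3 (probe set 17254188), studied in rodents in T cells and in gut epithelium, followed neither axis. It read 5.17, 5.16 and 4.34 in KI and 4.21, 4.85 and 4.87 in WT c-kit-positive cells, and 4.73, 4.36 and 4.52 in KI and 4.45, 4.47 and 4.61 in WT c-kit-negative cells, and exceeded the floor on 2, 2, 1 and 1 arrays of these groups in that order. Slfn5 (probe set 17254153) ranged from 3.71 to 4.57, with its highest reading in the c-kit-negative array of KI leukaemia 81, and was not tested.

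**Figure D1:**
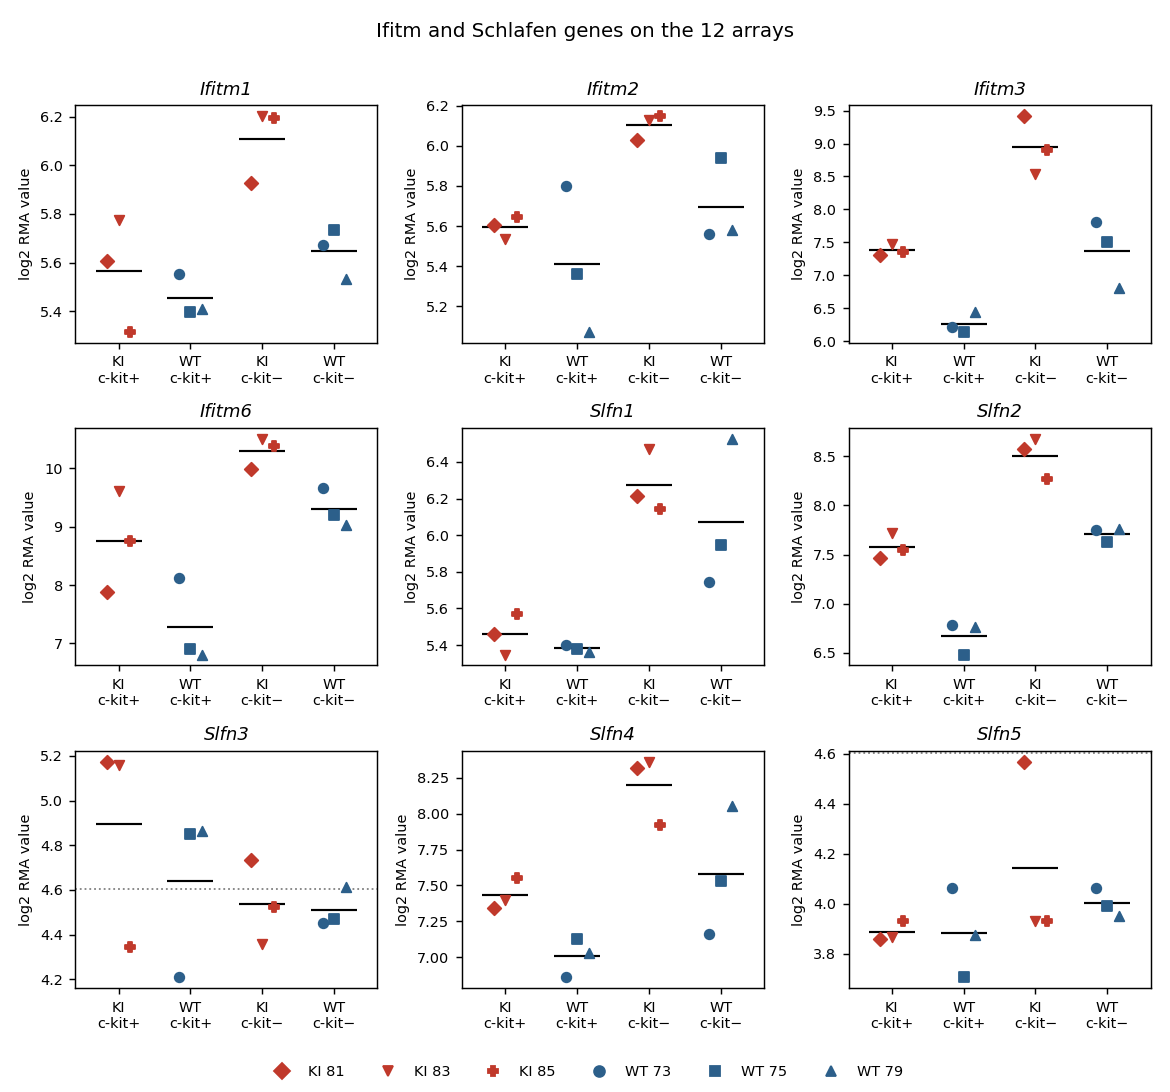
Log2 RMA values (y axis, scaled for each gene) of the 9 measured members on the 12 arrays, by group on the x axis. Each symbol is a leukaemia, black lines are means of 3 arrays, and the dotted line marks the floor of log2 4.61 for Slfn3 and Slfn5. Ifitm3 and Slfn2 show no overlap between KI and WT in either fraction, and Slfn3 shows no order. The share of all genes without overlap within a fraction was not counted.

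A member was said to follow the genotype label where the 3 KI leukaemia means did not overlap with the 3 WT means, and the sort where the c-kit-positive minus c-kit-negative difference had the same sign in all 6 leukaemias. By these descriptions 5 members followed both (Ifitm1, Ifitm3, Ifitm6, Slfn2 and Slfn4), Ifitm2 followed the label alone, Slfn1 the sort alone, and Slfn3 neither. All 6 that followed the label were higher in KI, as were 5.52% of all 19152 genes, while 7.45% were lower in KI without overlap. All 6 that followed the sort were lower in c-kit-positive cells, as were 8.97% of all genes. Higher in KI and lower in c-kit-positive cells at once held for 0.903% of all genes, 173 in number, and 5 of them are the members named. Since the members were selected with these values in view, the shares are background and no more is read from the counts. For overlap of arrays within a single fraction, no share of all genes was counted, so those statements only describe the members.

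**Figure D2:**
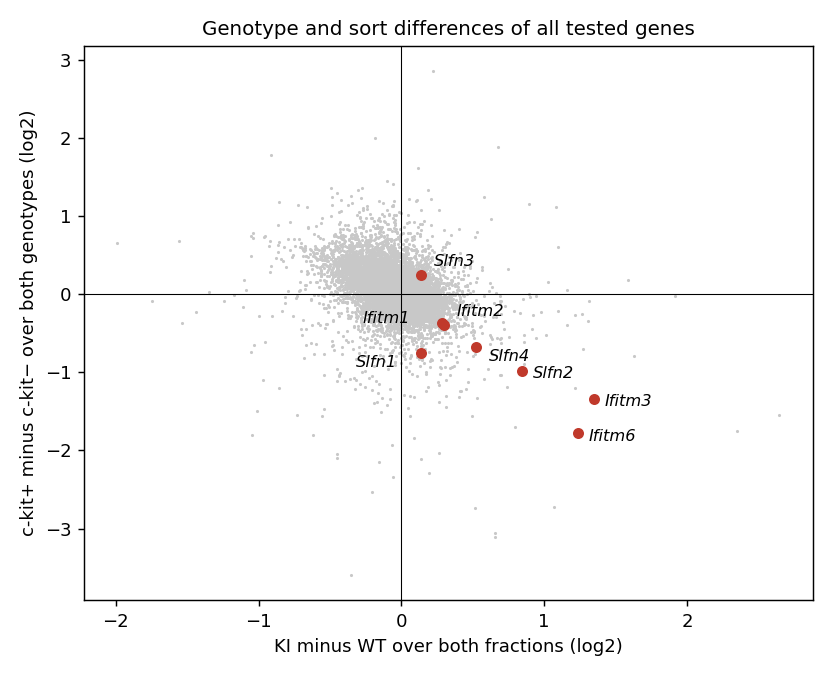
Difference KI minus WT over both fractions (x axis, log2) and c-kit-positive minus c-kit-negative over both genotypes (y axis, log2) of all 19152 genes tested (grey) with the 8 members tested in red. Ifitm3, at 1.35 and -1.34, and Ifitm6, at 1.23 and -1.78, lie farthest out among the members, and Slfn3 lies near the centre.

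The 2 axes placed the groups in steps. Ifitm3 averaged 7.38 ± 0.09 in KI and 6.26 ± 0.16 in WT c-kit-positive cells, and 8.95 ± 0.44 in KI and 7.38 ± 0.51 in WT c-kit-negative cells (log2, SD, n = 3 each), so that KI c-kit-negative cells stood highest and WT c-kit-positive cells lowest. The middle groups, KI c-kit-positive and WT c-kit-negative, differed by 0.01, less than either SD. Slfn2 averaged 7.58 ± 0.13 in KI and 6.68 ± 0.17 in WT c-kit-positive cells, and 8.50 ± 0.21 in KI and 7.71 ± 0.07 in WT c-kit-negative cells (SD, n = 3 each). Its middle groups differed by -0.13, slightly more than the SD of either. For Slfn4 they differed by -0.15, for Ifitm1 by -0.08 and for Ifitm2 by -0.10, and each of these gaps was less than the larger SD of the pair. For Ifitm6 the middle gap was -0.55, inside the SD of 0.87 of the KI c-kit-positive arrays. Slfn1 lacked the step, since its KI c-kit-positive mean lay 0.61 under its WT c-kit-negative mean. Between the outer groups, KI c-kit-negative over WT c-kit-positive, Ifitm6 differed 8.09-fold, Ifitm3 6.45-fold, Slfn2 3.55-fold and Slfn4 2.29-fold.

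At an adjusted p of 0.05 over all genes (limma), Ifitm3 alone among the members passed for genotype over both fractions, where 0.0209% of genes were called higher and 0.00522% lower. Slfn2 passed in c-kit-positive cells (0.0574% of genes called higher and 0.0835% lower), and Ifitm3 and Slfn2 passed in c-kit-negative cells (0.0574% higher and 0.00522% lower). With the leukaemia number as a replicate block, Slfn2 joined Ifitm3 over both fractions (2 members, beside 0.0992% of genes called higher), and Slfn2 was the 1 member called in c-kit-negative cells (0.0574% higher). For the sort over both genotypes, 7 members passed as lower, all tested except Slfn3, beside 5.84% of genes called higher and 2.41% lower, and the block left 7 members called while the share of all genes called lower was 6.61%. Within WT leukaemias Ifitm6 and Slfn2 passed as lower (0.397% of genes higher, 0.371% lower), and 5 members did with the block, where 3.05% of genes were called lower. Within KI leukaemias Ifitm3, Slfn1 and Slfn2 passed as lower (1.13% higher, 0.752% lower), and 7 members did with the block, where 2.75% of genes were called lower. The choice of members used these contrasts, so the counts carry no weight of their own.

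The interaction is the sort difference in KI minus that in WT. In this balanced design it is orthogonal to the averages over both fractions and over both genotypes, but not to the contrasts within a fraction or a genotype, and the members were chosen with all 12 values known, so it is not free of the selection. None of the 8 members passed (0 of 8, limma, adjusted p = 1 for each), and 0% of all genes did. At an unadjusted p under 0.05 the counts were 0 members, and 232 genes higher and 195 lower among 19152. The estimate was -0.46 for Ifitm3 (95% confidence interval -1.19 to 0.26), 0.47 for Ifitm6 (-0.73 to 1.68), -0.35 for Ifitm1 (-0.74 to 0.04) and 0.11 for Slfn2 (-0.28 to 0.49). For Ifitm3 and Ifitm6 the intervals reach past 1 log2 unit, so these arrays bound the difference between the genotypes only loosely.

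**Figure D3:**
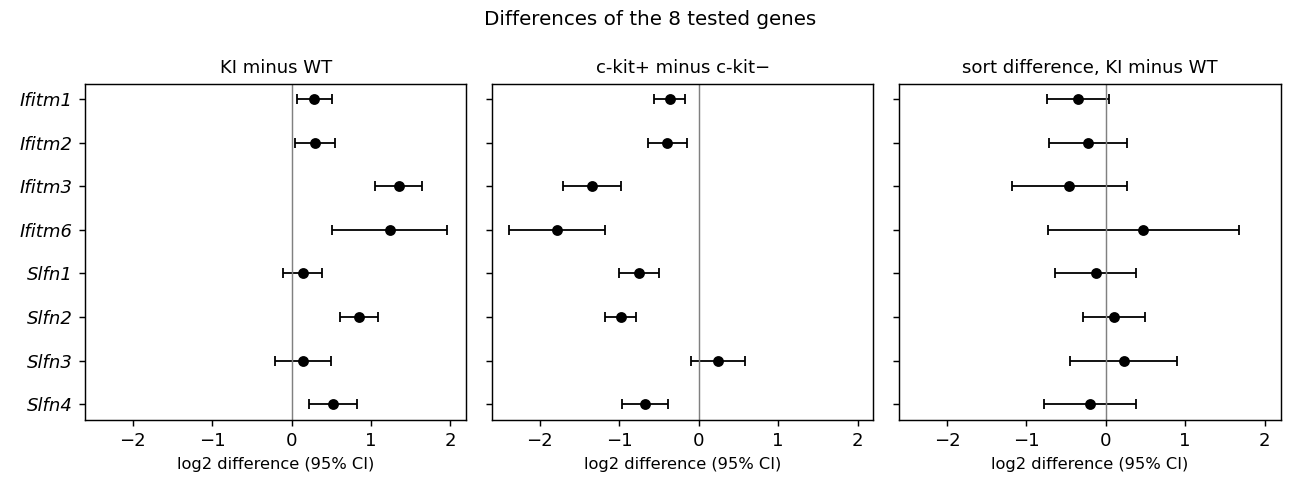
Log2 differences of the 8 members tested with 95% confidence intervals from limma, for KI minus WT over both fractions (left), c-kit-positive minus c-kit-negative over both genotypes (middle) and the interaction (right). Intervals for genotype lie above 0 for 6 members, as for 2.37% of all genes. Intervals for the sort lie under 0 for 7, as for 9.25% of all genes, and every interaction interval of the members spans 0. The members were chosen on their genotype and sort values, so the counts on those axes are a description.

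A list of genes of maturing neutrophils was read on the same arrays. All 18 genes of a late neutrophil list were measured and none was under the floor on all arrays. Their mean level ranged from 8.04 to 8.25 in KI and 6.98 to 7.57 in WT c-kit-positive cells, and from 9.19 to 9.40 in KI and 8.04 to 8.93 in WT c-kit-negative cells. Of the 18, 16 were higher in KI over both fractions and 2 of them passed the test (limma, adjusted p = 0.00272 for Ly6g, a neutrophil surface protein, and 0.00398 for Ltf, lactoferrin), while all 18 were lower in c-kit-positive cells over both genotypes and 10 of them passed. Ly6g was 5.09-fold higher in KI than in WT and 3.36-fold lower in c-kit-positive than in c-kit-negative cells. The list's median difference was 0.78 for genotype and -0.91 for the sort, beside 0.01 and -0.03 over all genes. The list's mean correlated over the 12 arrays with Slfn2 (Pearson r = 0.95), Ifitm6 (0.92), Ifitm3 (0.86), Slfn4 (0.86), Slfn1 (0.82), Ifitm2 (0.77) and Ifitm1 (0.76), and with Slfn3 at -0.25. For the same 7 members, Slfn3 left out, r ran from 0.59 to 0.75 with the mean of the monocyte and macrophage list, from 0.45 to 0.75 with that of classical interferon effectors and from -0.82 to -0.39 with that of primary granule genes. The members were chosen on the genotype and sort values of these same arrays. A list that differs along both axes correlates with them through that choice. Both arrays of a leukaemia also share their source, so these values describe the 12 arrays only. No value with group means removed is given for the lists. The part of late neutrophil cells in the members' differences was not tested.

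**Figure D4:**
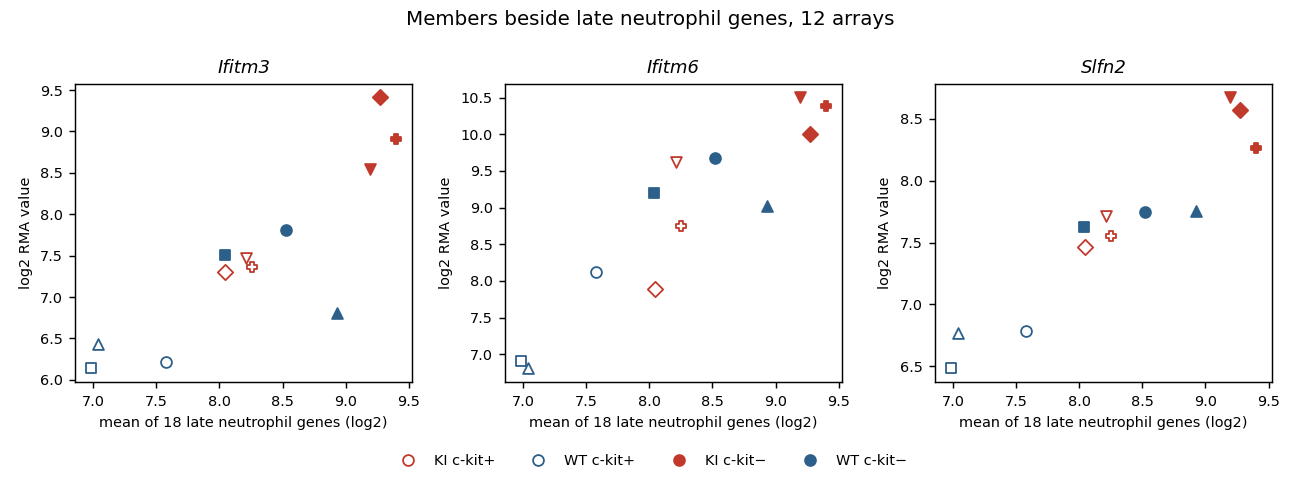
Log2 RMA values of Ifitm3, Ifitm6 and Slfn2 (y axes) against the mean log2 value of 18 late neutrophil genes (x axis) on the 12 arrays, with open symbols for c-kit-positive and filled symbols for c-kit-negative arrays, red for KI and blue for WT. Symbol shapes mark the leukaemias as in the plot of members by group. KI c-kit-positive arrays lie at list means of 8.04 to 8.25, within the span of the WT c-kit-negative arrays, 8.04 to 8.93.

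Other cell types were read from lists of their own. Of 14 monocyte and macrophage genes, 13 were measured, with a mean of 6.58 to 6.69 in KI and 6.71 to 6.88 in WT c-kit-positive cells, and 7.42 to 8.04 in KI and 7.31 to 7.96 in WT c-kit-negative cells. The 7 measured genes of primary granules, made by promyelocytes, ran against the members along the sort, all 7 rising in c-kit-positive cells (median difference 1.61), with 0 called for genotype (limma, 2 at an unadjusted p under 0.05). The 8 stem and progenitor genes, Kit among them, averaged 7.61 to 7.65 in KI and 7.81 to 8.55 in WT c-kit-positive cells, and 7.39 to 7.60 in KI and 7.86 to 7.98 in WT c-kit-negative cells. Over both fractions 7 of them were lower in KI and 1 higher, with 0 called (limma). Within each fraction 1 gene was called, Mecom, and it was higher in KI (limma). Mecom averaged 6.84 in KI and 5.68 in WT c-kit-positive cells, and 6.78 in KI and 5.63 in WT c-kit-negative cells. T and NK genes (10 of 12 measured, Gzma under the floor everywhere) had a mean of 5.06 to 5.24 in KI and 4.99 to 5.17 in WT c-kit-positive cells, and 5.27 to 5.39 in KI and 5.13 to 5.17 in WT c-kit-negative cells, where the genotypes did not overlap. B cell genes (7 of 8 measured) reached 6.43 in a KI c-kit-negative array, against at most 5.95 in the 3 other groups. Erythroid and megakaryocyte genes (5 of 10 measured) ranged from 5.52 to 6.49. The part of these cells in the members' values was not tested.

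Likeness over the 12 arrays was read with gene models without a name (Gm and Rik) left out. The 5 named genes nearest to Slfn2 were Map3k9, a kinase of the JNK pathway (Pearson r = 0.97), Ly6g (0.95), Fpr2, a formyl peptide receptor of neutrophils (0.95), Antxr2, an anthrax toxin receptor (0.95), and Tlr5, the flagellin receptor (0.95). Nearest to Ifitm6 were Acss2os (0.96), Lcn2, an iron-chelating granule protein (0.95), Pgap1 (0.95), Mxd1, a MAX partner of differentiating cells (0.94), and Slc11a2, an iron transporter (0.93). Nearest to Ifitm3 were Smim3 (0.94), Ly6g (0.94), Eps8, an actin regulator (0.93), Lyz2, lysozyme of myeloid cells (0.93), and Slfn2 (0.93). Among the members, Slfn1 and Slfn4 varied together within the groups as well, with r = 0.89 over the 12 arrays and 0.89 after group means were removed. Ifitm3 and Slfn2 correlated at 0.93 over the arrays and 0.03 after group means were removed, and Ifitm3 and Slfn1 at 0.61 and -0.84. Since the members were chosen on values of these arrays, the correlations over the 12 arrays are a description.

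The interferon pathway was read from lists of ligands, receptors, signalling genes, sensors, inhibitors and effectors, 83 genes in all, of which 75 were measured and 64 tested. None was called for genotype in any of the 3 comparisons (limma), and 12, 5 and 18 of them had an unadjusted p under 0.05 over both fractions, in c-kit-positive and in c-kit-negative cells. For the ligands, 7 of 10 interferon genes were tested, and none was called by genotype or sort without the replicate block. Ifna1 differed by 0.19 between KI and WT (limma, adjusted p = 0.782). Of 6 receptor genes none was called either, with differences of 0.36 for Ifnlr1, the interferon lambda receptor, and -0.35 for Ifngr1, an interferon gamma receptor chain (limma, adjusted p = 0.455 and 0.544).

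Of 10 signalling genes tested, Irf7, the factor that amplifies type I interferon, fell in c-kit-positive cells by 0.51 (SE 0.12, limma, adjusted p = 0.0165). It averaged 5.998 ± 0.12 in KI and 5.95 ± 0.10 in WT c-kit-positive cells, and 6.69 ± 0.41 in KI and 6.28 ± 0.04 in WT c-kit-negative cells (SD, n = 3 each). Irf1 and Irf9 differed by 0.43 and 0.44 between KI and WT (limma, adjusted p = 0.568 and 0.686). Among 8 nucleic acid sensors, 3 fell in c-kit-positive cells over both genotypes, the endosomal receptors Tlr7 (log2 difference -0.79, limma, adjusted p = 0.00300) and Tlr9 (-0.70, adjusted p = 0.00394) and the Z-nucleic acid sensor Zbp1 (-0.39, adjusted p = 0.0457). Zbp1 had the smallest p of the 64 genes for genotype in c-kit-negative cells, with 7.49 ± 0.38 in KI against 6.73 ± 0.06 in WT (SD, n = 3 each) and a difference of 0.76 that did not pass (limma, adjusted p = 0.233). The inhibitor Usp18, which blocks the type I interferon receptor, differed by 0.44 between KI and WT (limma, adjusted p = 0.409).

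Classical effectors of interferon, 39 listed, 35 measured and 27 tested, gave 0 calls for genotype (limma), with 7 at an unadjusted p under 0.05. Their median KI minus WT difference was 0.13 over both fractions, 0.04 in c-kit-positive cells and 0.28 in c-kit-negative cells. The medians over all genes were 0.0101, 0.014 and -0.0026 in that order. In c-kit-negative cells 25 of the 27 were higher in KI, with 11 at an unadjusted p under 0.05 and none called. Of all genes, 2.33% were higher and 3.76% lower in KI at that p in these cells. The mean of the list on c-kit-negative arrays was 6.12, 5.82 and 5.61 in KI leukaemias 81, 83 and 85, against 5.61, 5.63 and 5.55 in WT leukaemias 73, 75 and 79. Without leukaemia 81 the list's median in c-kit-negative cells was 0.10. Along the sort, Samhd1, a dNTP hydrolase that restricts viruses, fell in c-kit-positive cells (log2 difference -1.31, limma, adjusted p = 1.77e-04), as did Parp14 (-0.36, adjusted p = 0.0459). Oas3, Cmpk2, Isg20 and Trim30a had the smallest p for genotype, with differences of 0.39, 0.54, 0.29 and 0.26 (limma, adjusted p = 0.435, 0.435, 0.445 and 0.495).

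Of 8 genes that modify or bind IFITM proteins, Nedd4 encodes the ubiquitin ligase that targets the IFITM3 protein for degradation. Nedd4 was 2.36-fold higher in c-kit-positive than in c-kit-negative cells (log2 difference 1.24, SE 0.13, limma, adjusted p = 2.00e-04). It averaged 7.66 ± 0.44 in KI and 8.60 ± 0.14 in WT c-kit-positive cells, and 6.88 ± 0.18 in KI and 6.90 ± 0.19 in WT c-kit-negative cells (SD, n = 3 each). Its genotype difference of -0.49 over both fractions did not pass (limma, adjusted p = 0.412). Neither did the difference of -0.95 in c-kit-positive cells (limma, adjusted p = 0.0853). The arrays measure RNA and not IFITM3 protein, and a link between Nedd4 and the Ifitm3 values was not tested. Zdhhc20, a palmitoyltransferase that acts on IFITM3, differed by -0.32 between KI and WT (limma, adjusted p = 0.576).

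Genes beside the members were read as well. Of 16 tested neighbours of the Ifitm and Slfn clusters, 0 were called for genotype or sort (limma, without the replicate block). At an unadjusted p under 0.05 there were 0 for genotype over both fractions and 2 for the sort over both genotypes. Their median genotype difference was -0.01, with Rnh1, a ribonuclease inhibitor gene, at -0.25 and Sirt3, a mitochondrial deacetylase gene, at -0.17 (limma, adjusted p = 0.742 and 0.731). Of 5 tested family members outside the set, none was called for genotype or sort (limma, without the replicate block). For genotype over both fractions 0 had an unadjusted p under 0.05, with Ifitm5, the bone-specific member, at 0.24 and Slfn8 at 0.03 (limma, adjusted p = 0.597 and 0.969). In c-kit-negative cells 1 did, Ifitm5, with a difference of 0.35 (limma, adjusted p = 0.781).

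Over all 93 tested genes of these lists that are not members (interferon pathway, IFITM regulators, neighbours and other family genes), the sort over both genotypes called 1 higher (Nedd4) and 6 lower (Irf7, Tlr7, Tlr9, Zbp1, Samhd1 and Parp14), and 22 in all with the leukaemia number as a replicate block. All genes called in either direction numbered 1580 without the block and 3758 with it. Within WT leukaemias 2 were called (Nedd4 and Samhd1) and 11 with the block, beside 147 and 2109 of all genes. Within KI leukaemias 5 were called (Irf7, Zbp1, Tlr7, Tlr9 and Samhd1) and 14 with the block, beside 360 and 1666 of all genes.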

How the data were processed

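The deposited table held log2 RMA values of 41345 probe sets on 12 arrays, made by the authors with RMA in Affymetrix Expression Console, per the submitters' processing notes, with versions not given in the sources used here. Values were used as deposited. Probe sets with exactly 1 symbol numbered 23521, another 1814 had several and 16010 were not listed in the annotation. Symbols were updated through the Entrez identifier for 23328. The probe set with the highest mean stood for each gene. limma 3.58.1 in R 4.3.3 (statmod 1.5.0) was fitted to 19152 genes with 4 group means, and to leukaemia means for genotype over both fractions. Tests were two-sided and adjusted by Benjamini-Hochberg over all genes. The fits were also run on simulated arrays with independent noise. That simulation left out the pairing of arrays within a leukaemia, so it cannot check the fits for it. The number of arrays limits the precision.

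The numbers in the labels pair both fractions of a leukaemia. After group means were removed, both arrays of a leukaemia correlated at 0.279 to 0.601, and an alternative fit therefore took that number as a replicate block. The members, gene lists and tests were chosen with earlier results of these data known. Named genes were all members, the genes of the pathway lists past the threshold plus up to 4 more by smallest p, the 5 genes most like Ifitm3, Ifitm6 and Slfn2 (Gm and Rik models left out), and Dnmt3b and Kit. Of pathway genes that did not pass, some are given. Marker lists are given by counts and levels, and Ly6g, Ltf and Mecom, called for genotype, were named after their values were seen. The gene build of the array annotation is not given in the sources used here, so positions are those of the RefSeq promoter windows, and gene order is that of the RefSeq GRCm38.p6 table. Alternatives changed the filter, probe set rule, scaling, variance model, block, arrays in the fit and leukaemias.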

Additional observations from a re-analysis of the deposited data

How the results depend on the processing

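Under the alternatives, 646 values of the members' genotype and sort differences stayed within the spread between replicates of the reported value and 4 moved by more. Of these values 2 changed sign, both of the uncalled KI minus WT difference of Slfn3 in c-kit-negative cells (0.03 as reported), which was -0.0022 without leukaemia 73 and -0.0698 without 81. Counts of calls moved more. Members called for genotype over both fractions numbered 1, 0 with arrays centred on their median, 2 with the replicate block and 0 to 2 when a leukaemia was left out (0 without 75, 79 or 83, and 2 without 81 or 85). In c-kit-positive cells the count of 1 became 2 with only the 6 arrays compared and 0 to 2 without a leukaemia (0 without 73, 75, 79 or 83). In c-kit-negative cells the count of 2 became 1 with no filter, with the mean of all probe sets, with an intensity trend and with the block, 0 with centred arrays and with 6 arrays, and 0 to 2 without a leukaemia (0 without 73, 75, 79 or 83). For the sort over both genotypes the count of 7 became 6 with no filter, with centred arrays and with repeated quantile normalization. It became 4 to 6 without a leukaemia, lowest without 83. Within WT the count of 2 became 1 with centred arrays, 5 with the block and 0 to 3 without a leukaemia (0 without 73 or 75). It became 3 with the filter at percentile 50, with repeated quantile normalization and with 6 arrays. Within KI the count of 3 became 5 with repeated quantile normalization and 7 with the block, and 2 to 4 without a leukaemia. It became 4 with the filter at percentile 50, with the mean of all probe sets and with an intensity trend. The block changed no other count of members.

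The 93 listed genes that are not members had 0 calls for genotype under all alternatives except leaving out leukaemias, with 0 to 1 in c-kit-positive cells (1 without 81) and 0 to 3 in c-kit-negative cells (3 without 85). For the sort over both genotypes 7 calls became 22 with the block and 4 to 13 without a leukaemia (13 without 85). Within WT 2 became 1 with centred arrays and with an intensity trend, 11 with the block, 5 with 6 arrays and 0 to 4 without a leukaemia. Within KI 5 became 1 with centred arrays and with 6 arrays, 14 with the block and 1 to 9 without a leukaemia (9 without 85). Interaction estimates, none of them called, changed sign when a leukaemia was left out, with a range of -0.37 to 0.0377 for Ifitm2 (above 0 without 73), -0.3637 to 0.047 for Slfn1 (above 0 without 73 and, at 0.0241, without 83), -4e-04 to 0.1951 for Slfn2 (under 0 without 85) and -6e-04 to 0.4907 for Slfn3 (under 0 without 83). The cause of these changes was not tested.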
